A study of Mus musculus with 192 samples.

Results

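This is a comparison within the grid of a voxelated mouse brain, a brain section cut into small cubes (voxels) whose RNA is measured cube by cube. Grid columns 3 and 9 of rows C, D and E were set against their outer neighbours, columns 2 and 10 of the same rows. The arrays were chosen by the row letter and column number in their titles, with no measured value used. In all, 33 of the 192 arrays entered, 16 from columns 3 and 9 and 17 from columns 2 and 10. Both groups came from C57BL/6 male mice of age P56 with no treatment, and the sources give each voxel sample as RNA of pooled voxels. Each voxel sample shared its array with a reference of whole brain RNA of the same strain, sex and age. The brains were harvested in 3 independent datasets, which are the replicates (n = 3). Columns 3 and 9 had 5, 5 and 6 arrays in datasets 1 to 3, and columns 2 and 10 had 6, 5 and 6. Voxel E3 was not analysed in dataset 1, so row E weighs less in columns 3 and 9 than in columns 2 and 10 there. The main differences of dataset 1, and the SDs and tests that use them, are therefore not matched by row. The numbers of arrays also set how precise each mean can be.

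The labels give no anatomy for the grid. As background, the striatum lies under the cortex, from which a sheet of white matter parts it. Its main cells are inhibitory projection neurons that receive dopamine and answer it through cyclic AMP, protein kinase A and the phosphatase inhibitor DARPP-32. Cortical projection neurons are excitatory and carry other marker genes, and white matter is rich in oligodendrocytes, the cells that make myelin. A voxel can hold all of these tissues, and in such bulk samples a smaller number of cells of a type and less RNA per cell cannot be told apart.

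Some properties of the arrays bear on the values. Each value is a log2 ratio whose row had been centred on its own median over the arrays, so it compares positions with each other and has no meaningful zero. Higher values probably stand for more RNA in the voxel, which is an assumption, because the labels do not name the numerator channel. Were the numerator the whole brain channel, every sign and every order of levels below would be turned. The basis is that whole brain is called the control in the labels. Striatal markers were high together at neighbouring positions, but this cannot settle the direction, since they would be low together there if the ratio were turned. Voxel RNA carried Cy3 in datasets 1 and 3 and Cy5 in dataset 2, and the comparison was made within each dataset. The dataset 2 arrays labelled D2 and D3 were left out because their place is in doubt. The dataset 2 array labelled D2 correlated at -0.10 with the mean of the 2 other D2 arrays and at 0.12 with that of D6, and the one labelled D3 correlated at -0.04 with D3 and at 0.03 with D6. The median share of missing or floor values per array was 1.43% in columns 3 and 9 and 1.11% in columns 2 and 10. Among arrays of the same dye orientation the lowest correlation was -0.27, and 0 of 298 pairs lay under -0.3. With both orientations counted, arrays of the same side in different datasets correlated at a median of -0.07 (lowest -0.44). Arrays of different sides in the same dataset correlated at a median of 0.26, so arrays resembled each other more by dataset than by side.

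Across all genes no difference between the columns passed the test. With limma on 1 difference per dataset, 0 of 15570 genes (0%) had an adjusted p under 0.05. An unadjusted p under 0.05 was found for 898 genes (5.77%), 3.22% of all genes being higher and 2.55% lower in columns 3 and 9, where this threshold gives 778.5 on average when nothing differs. The differences of the datasets correlated across genes at 0.08, 0.07 and 0.08 between pairs of datasets (Pearson, across 15570 genes, which are not independent). A description by size was used beside the test. It took genes whose difference had the same sign in 3 of 3 datasets and averaged at least 0.5 on the log2 scale. It held 107 genes higher in columns 3 and 9 (0.687%) and 86 lower (0.552%). The balance of directions depended on the datasets, with 95 higher and 129 lower without dataset 1, 211 and 324 without dataset 2, and 402 and 141 without dataset 3.

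Other fits of the same arrays made calls. Over the 7056 genes measured on every array, 71 passed (1.01%), of which 27 were higher (0.383%) and 44 lower (0.624%) in columns 3 and 9. In this fit fewer genes were tested, the spread was pooled over those genes alone, and rows with a missing value were dropped. The replicates were still 3 datasets, so its small p-values rest largely on that pooled spread. Bcas1 had the same 3 differences in both fits, with a limma t statistic of 8.89 in the main fit and 9.44 here. Its unadjusted p was 0.00012 in the main fit and 2.2e-08 here (limma). Genes that lost a row could differ from the main fit, as Ncald did at -0.93 (main fit -0.58) and Litaf at 0.85 (main fit 0.65), while Ttr was at 0.17 (main fit 0.68). With each array as its own value 63 genes passed (0.405%), 29 higher (0.186%) and 34 lower (0.218%), although voxels of 1 dataset are not independent samples. The 2 fits shared 32 genes, which is 45.1% of the first set and 50.8% of the second. Of the shared genes 11 were higher and 21 lower in columns 3 and 9. Over all settings the limma adjusted p ran from 5.1e-05 to 1.00 for Bcas1, from 0.018 to 1.00 for Vxn, from 0.00021 to 1.00 for Ppp1r1b and from 8.2e-05 to 1.00 for Basp1.

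Genes linked to oligodendrocytes had the higher values in columns 3 and 9. Bcas1, which marks oligodendrocytes that have begun to form myelin, averaged 0.96, 0.71 and 0.17 in columns 3 and 9 of datasets 1 to 3, against 0.06, -0.03 and -0.78 in columns 2 and 10. Single arrays ran from -0.31 over a median of 0.50 to 1.64 in columns 3 and 9, and from -1.59 over -0.14 to 0.30 in columns 2 and 10. Within datasets 1 and 2 every array of columns 3 and 9 lay above every array of columns 2 and 10, and in dataset 3 they overlapped. Such a gap in at least 2 datasets occurred in 4 genes in this direction (0.0257%) and in 2 in the other (0.0128%), and a gap in 3 datasets in 0 genes in this direction and in 1 in the other (0.00642%). The mean difference for Bcas1 was 0.87 ± 0.11 (SD, n = 3), a 1.82-fold higher ratio, with an adjusted p of 0.495 (limma). It passed over the genes measured on every array (adjusted p = 5.1e-05) and in the array fit (adjusted p = 0.00016).

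Gatm, the enzyme that makes the precursor of creatine and is abundant in oligodendrocytes, is shown with its promoter as the first of 3 genes that stand for the higher oligodendrocyte, higher striatal and lower neuronal groups. The windows run from 250 bases before to 50 bases after the start of the gene (RefSeq, GRCm38.p6), 5′ to 3′ on the gene's strand, and capitals mark a motif match. Gatm lies on the minus strand (chr2:122611228-122611527), Rasd2 on the plus strand (chr8:75213694-75213993) and Basp1 on the minus strand (chr15:25413715-25414014).
Gatm: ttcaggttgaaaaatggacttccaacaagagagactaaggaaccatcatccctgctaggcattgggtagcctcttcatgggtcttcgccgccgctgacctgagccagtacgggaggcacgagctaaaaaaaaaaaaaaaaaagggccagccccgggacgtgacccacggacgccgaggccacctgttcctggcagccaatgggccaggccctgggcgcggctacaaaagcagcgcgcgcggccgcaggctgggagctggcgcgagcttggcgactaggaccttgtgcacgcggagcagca
Rasd2: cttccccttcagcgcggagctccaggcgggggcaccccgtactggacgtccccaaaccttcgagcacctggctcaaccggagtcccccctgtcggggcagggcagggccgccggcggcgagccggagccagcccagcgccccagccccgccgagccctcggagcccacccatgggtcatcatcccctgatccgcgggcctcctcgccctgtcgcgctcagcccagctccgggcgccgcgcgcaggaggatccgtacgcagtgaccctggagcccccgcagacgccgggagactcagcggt
Basp1: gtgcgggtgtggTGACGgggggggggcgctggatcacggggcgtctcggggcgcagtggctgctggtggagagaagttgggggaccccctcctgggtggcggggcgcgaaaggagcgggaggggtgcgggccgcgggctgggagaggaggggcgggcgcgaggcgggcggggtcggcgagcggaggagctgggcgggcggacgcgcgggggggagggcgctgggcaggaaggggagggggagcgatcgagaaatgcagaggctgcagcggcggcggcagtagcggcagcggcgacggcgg
All 3 windows were rich in G and C, with 60.7% in Gatm, 74.7% in Rasd2 and 78% in Basp1, against a median of 53% over 32544 promoters. Each of 3 core motifs was searched on both strands, and none overlaps another. ACAAAG, the core of TCF and SOX factor sites, occurred in 18.7% of all promoters, TGACG, the core of a cyclic AMP response element, in 20.9%, and CAGATG, an E-box, in 17.1%. The single match among the 3 genes was TGACG at bases 13 to 17 of the Basp1 window.

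Gatm averaged 0.87, 1.10 and -0.14 in columns 3 and 9 of datasets 1 to 3, against -0.03, 0.41 and -0.77 in columns 2 and 10. Single arrays ran from -0.68 over 0.62 to 1.82 in columns 3 and 9 and from -1.03 over -0.19 to 1.25 in columns 2 and 10. The level shifted between datasets on both sides, while the difference stayed at 0.89, 0.68 and 0.63 (mean 0.74 ± 0.14, SD, n = 3; limma adjusted p = 0.498, array fit 0.011). Gsn, the actin-severing protein gelsolin, averaged 0.71, 0.48 and 0.54 in columns 3 and 9, against -0.01, -0.08 and -0.11 in columns 2 and 10. Its difference was 0.64 ± 0.08 (SD, n = 3), with a limma adjusted p of 0.576 in the main fit, 0.00064 where every array had a value and 0.0022 in the array fit. Tspan2, a tetraspanin of the oligodendrocyte lineage, differed by 0.57 ± 0.10 (SD, n = 3), with arrays that did not overlap in 2 datasets.

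All 11 measured genes of the myelin and oligodendrocyte list, of 31 listed, had a mean difference above 0, where 52.7% of all genes did. The list median was 0.56, against 0.01 over all genes. Its mean level was 0.66, 0.43 and 0.15 in columns 3 and 9 of datasets 1 to 3, against 0.04, -0.04 and -0.29 in columns 2 and 10. By unadjusted p 9 members were under 0.05, all higher, against 3.22% of all genes, and 7 met the size description, against 0.687%. The members of this list and of those below were chosen with earlier results of these data known, so such counts are a description. Over the genes measured on every array 5 of 7 members passed, against 0.383% of all genes, and 6 passed in the array fit, against 0.186%. Cryab, a small heat shock protein of oligodendrocytes and astrocytes, differed by 0.61 ± 0.12, and Qdpr, which regenerates the cofactor tetrahydrobiopterin, by 0.55 ± 0.15 (SD, n = 3 each). Ndrg1, with a role in myelin upkeep, differed by 0.56 ± 0.23, the septin gene Septin4 by 0.43 ± 0.22, and the ferritin heavy chain gene Fth1 by 0.38 ± 0.10 (SD, n = 3 each). The smallest differences were those of Car2, a carbonic anhydrase of oligodendrocytes, at 0.20 ± 0.08, and of Mbp, myelin basic protein, at 0.12 ± 0.29 (SD, n = 3 each). Mbp was lower in columns 3 and 9 in dataset 3 (-0.16), so the structural myelin protein did not share the direction in every dataset. Qdpr, Ndrg1, Septin4, Fth1, Car2 and Mbp were named after their values were seen, to account for each measured member. Scd2, a fatty acid desaturase outside the list and also named after its value was seen, passed in both other fits, with a difference of 0.51 ± 0.28 (SD, n = 3) and an adjusted p of 0.737 in the main fit.

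**Figure D1:**
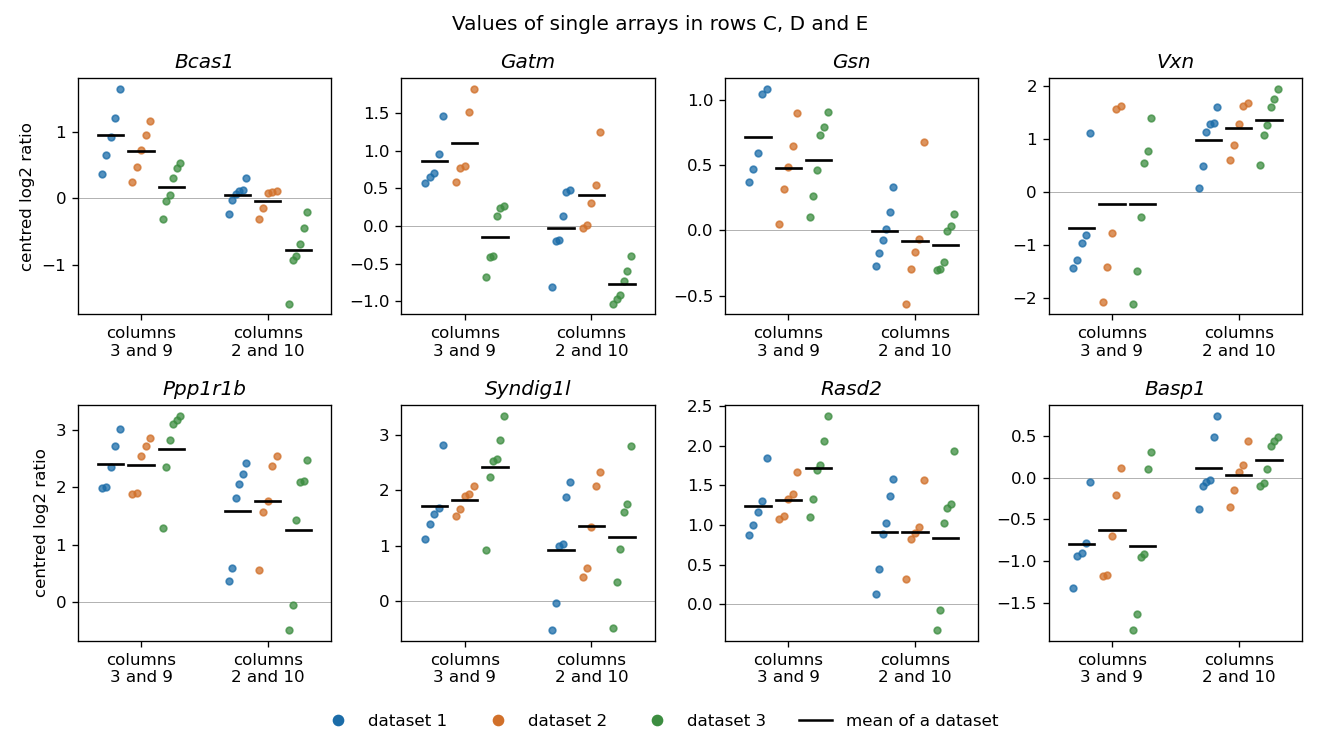
Centred log2 ratios of 8 genes on each of the 33 arrays, with columns 3 and 9 left of columns 2 and 10 in each panel, colours for the 3 datasets and a black bar for the mean of a dataset. In every panel and dataset the 2 bars stand in the same order, while most groups of points overlap.

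Striatal genes were also higher in columns 3 and 9, with wide overlap. Ppp1r1b, which encodes DARPP-32, averaged 2.41, 2.38 and 2.66 in columns 3 and 9 of datasets 1 to 3, against 1.58, 1.76 and 1.26 in columns 2 and 10. Single arrays ran from 1.29 over 2.63 to 3.25 in columns 3 and 9 and from -0.49 over 1.82 to 2.55 in columns 2 and 10, and they overlapped in all 3 datasets. Both sides thus held arrays of high Ppp1r1b, and the low ones were in columns 2 and 10. The difference was 0.95 ± 0.41 (SD, n = 3), 1.94-fold, with an adjusted p of 0.576 (limma). It passed over the genes measured on every array (adjusted p = 0.00021) and not in the array fit (adjusted p = 0.148).

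Syndig1l, a membrane protein related to the synapse factor SynDIG1, averaged 1.71, 1.82 and 2.41 in columns 3 and 9, against 0.91, 1.35 and 1.16 in columns 2 and 10. Its arrays ran from 0.92 over 1.91 to 3.35 in columns 3 and 9 and from -0.53 over 1.03 to 2.80 in columns 2 and 10. The difference was 0.84 ± 0.40 (SD, n = 3), and the groups overlapped in every dataset. Tgfa, a ligand of the epidermal growth factor receptor, averaged 1.79, 1.30 and 2.10 in columns 3 and 9, against 1.12, 1.05 and 0.94 in columns 2 and 10 (difference 0.69 ± 0.45, SD, n = 3). Rasd2, the small GTP-binding protein Rhes of striatal neurons, averaged 1.24, 1.32 and 1.72 in columns 3 and 9, against 0.91, 0.92 and 0.84 in columns 2 and 10 (difference 0.53 ± 0.30, SD, n = 3). All 3 genes were higher in columns 3 and 9 in each dataset, with dataset 3 showing the widest gap. Tgfa and Rasd2 passed over the genes measured on every array (adjusted p = 0.0062 and 0.015), and none of the 3 passed in the main fit or the array fit.

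Of 35 listed striatal genes 12 were measured, and all 12 mean differences were above 0, with a median of 0.38, although Dclk3 was at -0.0041 with quantile normalization. In dataset 1 Dclk3 (-0.26) and Arpp21 (-0.17) were below 0, as were Foxp1 (-0.07) in dataset 2 and Bcl11b (-0.01) in dataset 3. The mean differences of Rasgrp2, Arpp21 and Foxp1 also turned their sign in some other settings. The dopamine receptor genes Drd1 and Drd2 and the adenosine receptor gene Adora2a were not analysed here. The list mean was 0.93, 0.87 and 1.25 in columns 3 and 9 of datasets 1 to 3, against 0.62, 0.63 and 0.61 in columns 2 and 10. At an unadjusted p under 0.05 there were 7 members, against 3.22% of all genes, and 4 met the size description, against 0.687%. Those 4 were Ppp1r1b, Syndig1l, Tgfa and Rasd2. As members were chosen with earlier results of these data known, the counts beside the shares of all genes are a description and no test. Over the genes measured on every array 4 of 6 passed, against 0.383%, Meis2 being the fourth. Meis2, a homeobox factor, differed by 0.46 ± 0.28, the calcium-binding proteoglycan gene Spock3 by 0.39 ± 0.33 and Actn2, an actin cross-linker of dendritic spines, by 0.38 ± 0.21 (SD, n = 3 each). Small differences were those of Rasgrp2, an exchange factor for Rap proteins, at 0.19 ± 0.11, Bcl11b, a transcription factor of striatal and deep cortical neurons, at 0.17 ± 0.19, and Foxp1, shared by striatum and cortex, at 0.11 ± 0.16 (SD, n = 3 each). Arpp21, a cyclic AMP-regulated phosphoprotein, was at 0.05 ± 0.23 and the kinase gene Dclk3 at 0.01 ± 0.25 (SD, n = 3 each). The 2 rows of Arpp21 opposed each other, with -0.33 and 0.42. The sign of Bcl11b turned when floor values were kept (-0.41), a setting under which it was measured on more arrays.

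The wider dopamine and cyclic AMP pathway was split in direction. Of 45 listed genes 26 were measured, 14 with a difference above 0 and 12 below, with a median of 0.04. Its 2 genes that met the size description upward were Ppp1r1b and Rasd2, against 0.687% of all genes. The 1 downward, against 0.552% of all genes, was Prkar1b, a regulatory subunit of protein kinase A that is enriched in neurons. Prkar1b averaged -0.76, -0.53 and -0.24 in columns 3 and 9 of datasets 1 to 3, against -0.30, 0.10 and 0.51 in columns 2 and 10 (difference -0.61 ± 0.15, SD, n = 3; limma adjusted p = 0.576).

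Vxn had the smallest p of the comparison, and it was lower in columns 3 and 9. It encodes vexin, known from frog embryos to promote neurogenesis, and stands here in the list of cortical neuron genes. It averaged -0.68, -0.22 and -0.23 in columns 3 and 9 of datasets 1 to 3, against 0.98, 1.21 and 1.35 in columns 2 and 10. Single arrays ran from -2.11 over -0.79 to 1.61 in columns 3 and 9 and from 0.07 over 1.28 to 1.93 in columns 2 and 10. The groups overlapped in each dataset, and the row E arrays of columns 3 and 9 were high, at 0.77 to 1.61. In dataset 3 the D9 array (0.54) also lay above the C10 array (0.50). The difference was -1.56 ± 0.11 (SD, n = 3), a 2.94-fold lower ratio, with an adjusted p of 0.070 (limma). In dataset 1, which lacks E3, Vxn differed by -1.65 over all arrays and by -1.64, -2.09 and -0.33 in rows C, D and E. It passed in the array fit (adjusted p = 0.018), with no centring of arrays (0.046), with quantile normalization (0.018) and without row E (0.027). Vxn was not among the genes measured on every array.

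Basp1, a membrane protein of growing axon ends, had the next smallest p among lower genes with a symbol. It averaged -0.80, -0.63 and -0.82 in columns 3 and 9 of datasets 1 to 3, against 0.11, 0.03 and 0.20 in columns 2 and 10. Its arrays ran from -1.83 over -0.91 to 0.30 in columns 3 and 9 and from -0.38 over 0.07 to 0.74 in columns 2 and 10. The difference was -0.86 ± 0.19 (SD, n = 3), its 2 rows gave -0.84 and -0.89, and it passed where every array had a value (adjusted p = 8.2e-05) as well as in the array fit (0.012). Stmn1, a destabilizer of microtubules, averaged -0.46, -0.21 and -1.14 in columns 3 and 9, against 0.05, 0.54 and -0.14 in columns 2 and 10 (difference -0.75 ± 0.24, SD, n = 3; limma adjusted p = 0.00042 where every array had a value and 0.045 in the array fit). Pde1a, a calcium- and calmodulin-dependent phosphodiesterase, averaged -0.46, -0.17 and -0.19 in columns 3 and 9, against 0.45, 0.48 and 0.65 in columns 2 and 10 (difference -0.79 ± 0.14, SD, n = 3; limma adjusted p = 0.0040 in the array fit). Each of these genes was lower in columns 3 and 9 in every dataset, and the arrays overlapped in every dataset. In the main fit the limma adjusted p was 0.495 for Basp1 and Pde1a and 0.576 for Stmn1. The array fit treats voxels of 1 dataset as independent, which they are not.

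Other lower genes named by rule have varied roles. Gng3, a G protein gamma subunit of neurons, differed by -0.70 ± 0.20, Pip5k1c, which makes the membrane lipid PIP2 at synapses, by -0.75 ± 0.13 and Ncald, the calcium sensor neurocalcin delta, by -0.58 ± 0.10 (SD, n = 3 each). The 2 rows of Ncald differed in size, with -0.93 and -0.23. Camk2g, a subunit of calcium/calmodulin-dependent kinase II, differed by -0.53 ± 0.15, Osbpl1a, an oxysterol-binding protein of late endosomes, by -0.62 ± 0.23 and Id2, an inhibitor of helix-loop-helix factors, by -0.54 ± 0.15 (SD, n = 3 each). Also among the 15 lowest by the naming rule were Ly6e at -0.66 ± 0.02, the LIM protein gene Fhl2 at -0.68 ± 0.20, Fam219b at -0.72 ± 0.18 and Mocos, a molybdenum cofactor sulfurase, at -0.67 ± 0.26 (SD, n = 3 each). Ly6e, a membrane-anchored Ly6 protein, had nearly the same difference in each dataset, while Mocos varied from -0.37 to -0.83. Syn1, the synaptic vesicle protein synapsin I, and Clstn1, the transport adaptor calsyntenin 1, passed in both other fits and were named after their values were seen. Syn1 differed by -0.60 ± 0.27 and Clstn1 by -0.53 ± 0.18 (SD, n = 3 each).

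The cortical and axonal lists leaned the same way as these genes. Of 41 listed genes of cortical projection neurons 16 were measured, 13 had a difference below 0, and the median was -0.27. Over all genes 52.7% had a difference above 0. The list mean was -0.16, 0.11 and 0.12 in columns 3 and 9 of datasets 1 to 3, against 0.22, 0.31 and 0.42 in columns 2 and 10. The unadjusted p was under 0.05 for 8 members, all lower, against 2.55% of all genes. Zbtb18, a repressor needed for cortical neuron development, differed by -0.62 ± 0.29 and Nrgn, the postsynaptic calmodulin-binding protein neurogranin, by -0.35 ± 0.19 (SD, n = 3 each). Zbtb18 passed over the genes measured on every array (adjusted p = 0.0042) and in the array fit (0.015), and not in the main fit (0.664, limma each). Of 22 listed genes of axon growth and neurofilaments 14 were measured, 13 had a difference below 0, and the median was -0.22. Tmsb10, a thymosin that binds actin monomers, differed by -0.35 ± 0.11 (SD, n = 3).

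**Figure D2:**
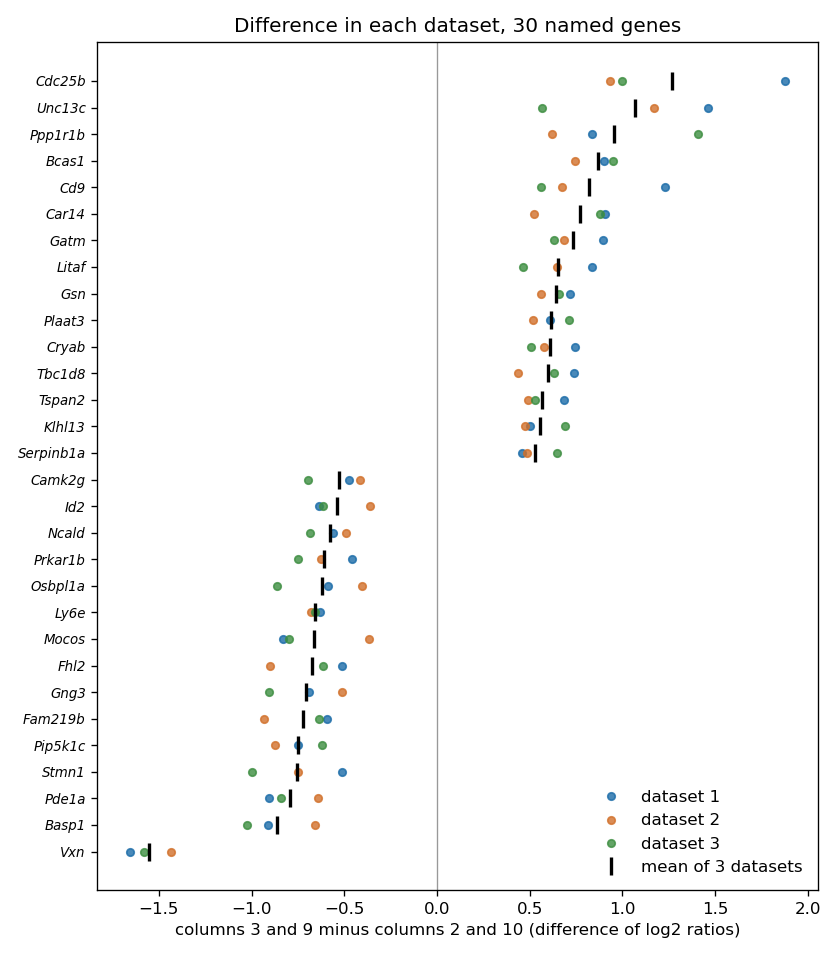
Difference of log2 ratios, columns 3 and 9 minus columns 2 and 10, in each of 3 datasets (coloured points) for the 15 higher and 15 lower genes named by rule, with a bar at the mean. By that rule all points of a gene lie on one side of 0, and the means run from 1.27 for Cdc25b to -1.56 for Vxn.

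The remaining higher genes named by rule belong to several processes. Cdc25b, a phosphatase that starts mitosis, had the widest mean difference, 1.27 ± 0.53 (SD, n = 3), and ran from -4.05 over -0.33 to 1.07 on arrays of columns 2 and 10. A single array at C10 of dataset 3 stood at -3.86, with the next at 0.46, so the difference of that dataset (1.00) leans on it. Unc13c, a priming factor of synaptic vesicles known from the cerebellum, differed by 1.07 ± 0.46, Cd9, a tetraspanin, by 0.82 ± 0.36 and Car14, a membrane-bound carbonic anhydrase, by 0.77 ± 0.21 (SD, n = 3 each). Litaf, a late endosome protein, differed by 0.65 ± 0.19 and passed in both other fits, and the phospholipase gene Plaat3 differed by 0.61 ± 0.10 and passed in the array fit (adjusted p = 0.011). Tbc1d8, a Rab GTPase activator, differed by 0.60 ± 0.15, Klhl13, an adaptor of a ubiquitin ligase, by 0.56 ± 0.12 and the protease inhibitor Serpinb1a by 0.53 ± 0.10 (SD, n = 3 each). The lowest adjusted p among these genes in the main fit was 0.576.

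Among markers of other cell types no thalamic or astrocyte gene passed in a fit that tested it. Over the genes measured on every array only 1 thalamic gene, Plekhg1, and 8 astrocyte genes were tested. Prkcd and Tcf7l2 were not tested there, and had an adjusted p of 0.055 and 0.84 in the array fit (limma). Of 10 listed thalamic genes 5 were measured, all with a difference above 0 and a median of 0.36. Over all genes 52.7% had a difference above 0, the share to set beside this count and the later ones. The thalamic list mean was 0.27, 0.17 and -0.0019 in columns 3 and 9 of datasets 1 to 3, against -0.18, -0.23 and -0.36 in columns 2 and 10. Prkcd, a protein kinase C of relay neurons, averaged 1.39, 0.35 and -0.14 in columns 3 and 9 of datasets 1 to 3, against 0.21, -0.36 and -0.58 in columns 2 and 10 (difference 0.78 ± 0.38, SD, n = 3). Tcf7l2, a Wnt pathway factor, differed by 0.58 ± 0.17 and Plekhg1 by 0.36 ± 0.10 (SD, n = 3 each), and 1 of the 3 Plekhg1 rows, at 0.83, stood apart from the others at 0.15 and 0.16. Of 21 listed astrocyte genes 10 were measured, 9 with a difference above 0, and the median was 0.23. The astrocyte list mean was 0.28, 0.02 and -0.06 in columns 3 and 9, against -0.06, -0.19 and -0.13 in columns 2 and 10. Mt1, a metallothionein, differed by 0.30 ± 0.08, glutamine synthetase Glul by 0.30 ± 0.22 and the protease inhibitor cystatin C, Cst3, by 0.29 ± 0.12 (SD, n = 3 each). Ttr, the transthyretin of choroid plexus, differed by 0.68 ± 0.40 (SD, n = 3), from 2 rows at 1.19 and 0.17. Dcn, the proteoglycan decorin of meninges, differed by 0.37 ± 0.18, in a list of meninges and vessel genes with 7 of 11 members above 0 and a median of 0.04. Laptm5, a lysosomal protein of microglia, differed by 0.38 ± 0.29. All 4 measured microglial genes were above 0, where 52.7% of all genes were, with a list median of 0.09. The interneuron peptide Sst differed by -0.43 ± 0.20 (SD, n = 3 each), whereas the other 2 measured genes of inhibitory neurons were above 0. The part of these cell types in the striatal, myelin and cortical differences was not tested.

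Housekeeping lists stayed near 0. The 75 measured ribosomal protein genes had a median of 0.02, with 46 above 0, and the 62 genes of oxidative phosphorylation had a median of -0.02, with 27 above 0. None of either list lay outside the middle 90% of all genes, which ran from -0.26 to 0.28, whereas 9 of 11 myelin genes, 7 of 12 striatal, 3 of 5 thalamic and 5 of 10 astrocyte genes lay above it. Below it lay 8 of 16 cortical genes and 7 of 14 axonal ones. The 16 measured genes of calcium and calmodulin signalling divided evenly by sign, 8 above and 8 below 0, with a median of 0.02. The larger differences were downward, with 4 members below the middle 90% of all genes and 0 above. An unadjusted p under 0.05 was found for 4 members, all lower, against 2.55% of all genes. The list mean of the difference was -0.07, -0.08 and -0.10 in datasets 1 to 3. The 2 that met the size description, Ncald and Camk2g, were both lower, against 0.552% of all genes. Of 13 measured immediate early genes, which neurons switch on when active, 8 had a difference below 0 and 5 above, with a median of -0.02. The 2 with an unadjusted p under 0.05 were both lower, against 2.55% of all genes. Arc differed by -0.41 ± 0.11 and Egr1 by -0.31 ± 0.13 (SD, n = 3 each). Arc passed over the genes measured on every array (adjusted p = 0.039) and not in the main fit (adjusted p = 0.737).

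**Figure D3:**
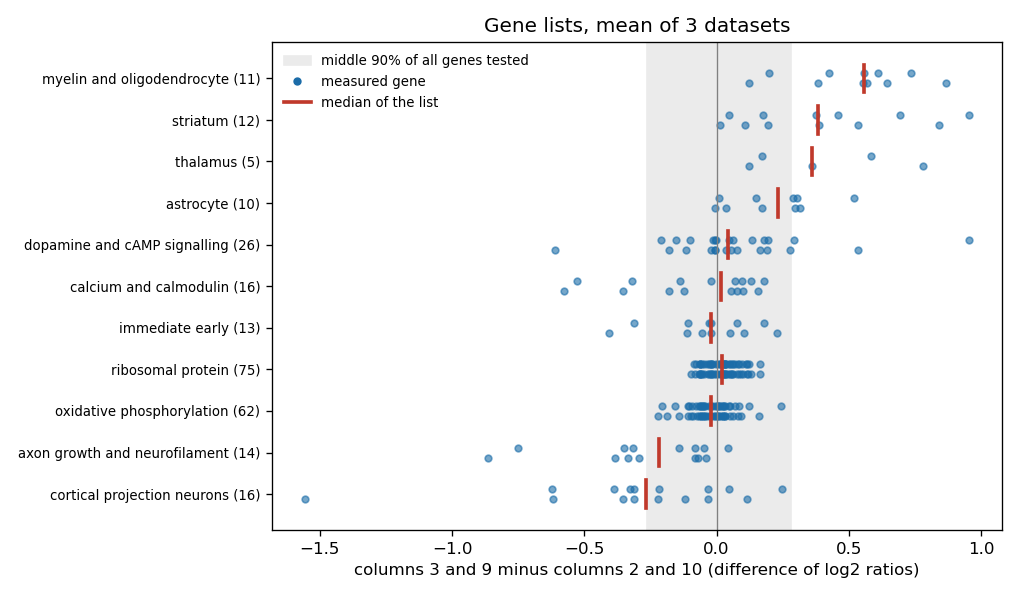
Mean difference over 3 datasets, columns 3 and 9 minus columns 2 and 10, for each measured gene of 11 lists (points; number of genes in brackets), with the list median in red and the middle 90% of all 15570 genes in grey. Medians run from 0.56 for the myelin list to -0.27 for the cortical list, and the ribosomal and oxidative phosphorylation genes lie within the grey band.

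The striatal and oligodendrocyte genes had different profiles across the section. These profiles share arrays with the comparison above and are a description. They leave out the dataset 2 arrays labelled D1, D5, D6 and D7 as well as D2 and D3, since the order of these arrays is in doubt. From columns 1 and 11 inward to column 6 of rows C, D and E, Ppp1r1b averaged -0.28, 1.53, 2.49, 1.86, -0.36 and -0.89. With the direction assumed here it was highest in columns 3 and 9 (lowest if the ratio is turned), as were Syndig1l (1.98), Tgfa (1.73) and Rasd2 (1.42), and columns 4 and 8 came next with 1.53, 1.25 and 1.00. For Ppp1r1b the gap between columns 3 and 9 (2.49 ± 0.15) and columns 4 and 8 (1.86 ± 0.64) was smaller than the SD of columns 4 and 8 (n = 3 each). Bcas1 averaged -1.15, -0.25, 0.61, 1.14, 0.70 and 0.55 from columns 1 and 11 to column 6. Its highest mean was in columns 4 and 8, and the same held for Gatm (1.21), Gsn (1.03), Cryab (1.15) and Tspan2 (1.04). Vxn averaged 0.60, 1.18, -0.38, -1.41, -1.42 and -2.17, so columns 2 and 10 were highest and column 6 lowest. Stmn1 was at 0.05, 0.15, -0.60, -0.24, -0.15 and 0.19, with its lowest mean in columns 3 and 9. Tcf7l2 averaged -0.07, -0.64, -0.06, 0.81, 2.06 and 2.31, highest in the middle of the section, as Ttr and Prkcd were in columns 5 to 7. As list means, the striatal list went through 0.62 in columns 2 and 10, 1.02 in columns 3 and 9 and 0.70 in columns 4 and 8, and the myelin list through -0.10, 0.42 and 0.89.

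**Figure D4:**
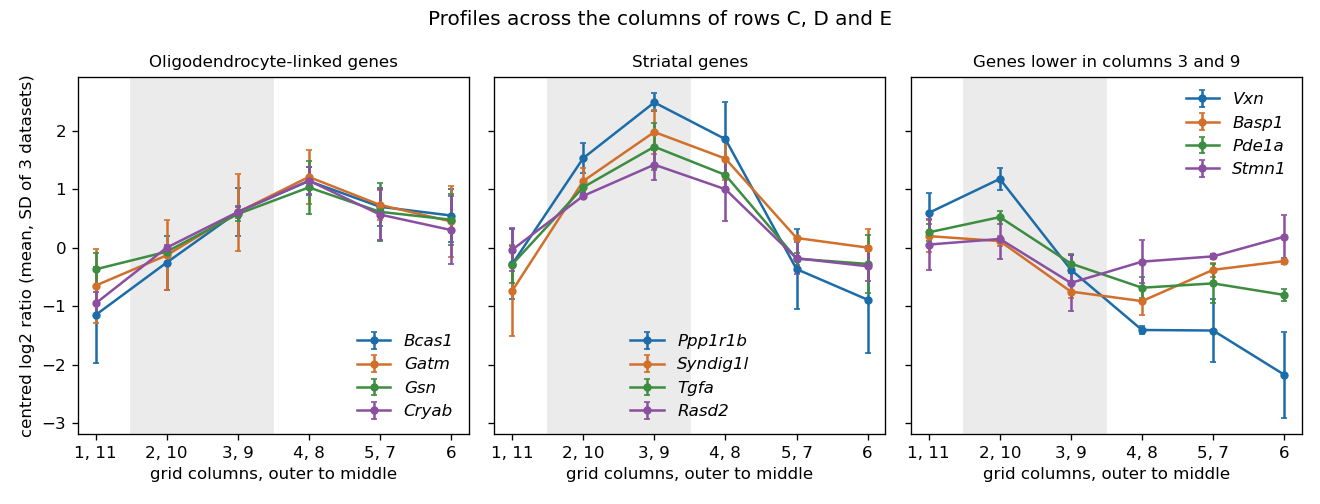
Mean centred log2 ratio of rows C, D and E by mirror pair of grid columns, from the outer pair 1 and 11 to the middle column 6, with error bars for the SD of 3 datasets; grey marks columns 2 and 10 and columns 3 and 9. Striatal genes are highest in columns 3 and 9 (Ppp1r1b 2.49), oligodendrocyte-linked genes in columns 4 and 8 (Bcas1 1.14), and Vxn in columns 2 and 10 (1.18).

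Differences within single rows varied between genes. Ppp1r1b differed between columns 3 and 9 and columns 2 and 10 by 0.24 ± 0.44 in row C, 0.84 ± 0.63 in row D and 1.64 ± 0.41 in row E (SD, n = 3 each). In row E its arrays lay between 1.29 and 2.86 in columns 3 and 9 and between -0.49 and 1.57 in columns 2 and 10. In row C they lay between 1.91 and 3.17 in columns 3 and 9 and between 1.77 and 2.55 in columns 2 and 10, so the groups overlapped there. Syndig1l differed by 0.21 in row C, 0.67 in row D and 1.42 in row E, and Rasd2 by 0.16, 0.57 and 0.86. Vxn ran the other way, with -2.24 ± 0.52 in row C, -1.96 ± 0.20 in row D and -0.27 ± 0.19 in row E (SD, n = 3 each). Its row C arrays lay between -2.11 and -1.28 in columns 3 and 9 and between 0.07 and 1.06 in columns 2 and 10. Basp1 differed by -0.94, -1.27 and -0.31 in rows C, D and E, and Stmn1 by -0.92, -1.11 and -0.15. Not all genes of either kind followed these orders. The striatal gene Rasgrp2 differed by 0.50, 0.35 and -0.28 in rows C, D and E. Osbpl1a, at -0.29, -0.57 and -0.93, and Fam219b, at -0.23, -0.07 and -1.71, were lowest in row E. Gatm was even, with 0.71, 0.75 and 0.74.

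The difference in row C was tested against that in row E with limma. Of 15327 genes 0 passed (0%), and at an unadjusted p under 0.05 there were 607 (3.96%). Row C minus row E was -1.40 ± 0.26 for Ppp1r1b (unadjusted p = 0.0016), -1.21 ± 0.28 for Syndig1l (0.0034) and -1.96 ± 0.59 for Vxn (0.0010) (SD, n = 3 each), with an adjusted p of 0.965 for all 3 in the same limma fit. The smallest p-values were those of the protease inhibitor Serpinb9c (-2.00 ± 0.56) and the growth factor receptor Fgfr4 (1.55 ± 0.20), followed by Vxn (SD, n = 3 each). Row differences are therefore given as values.

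**Figure D5:**
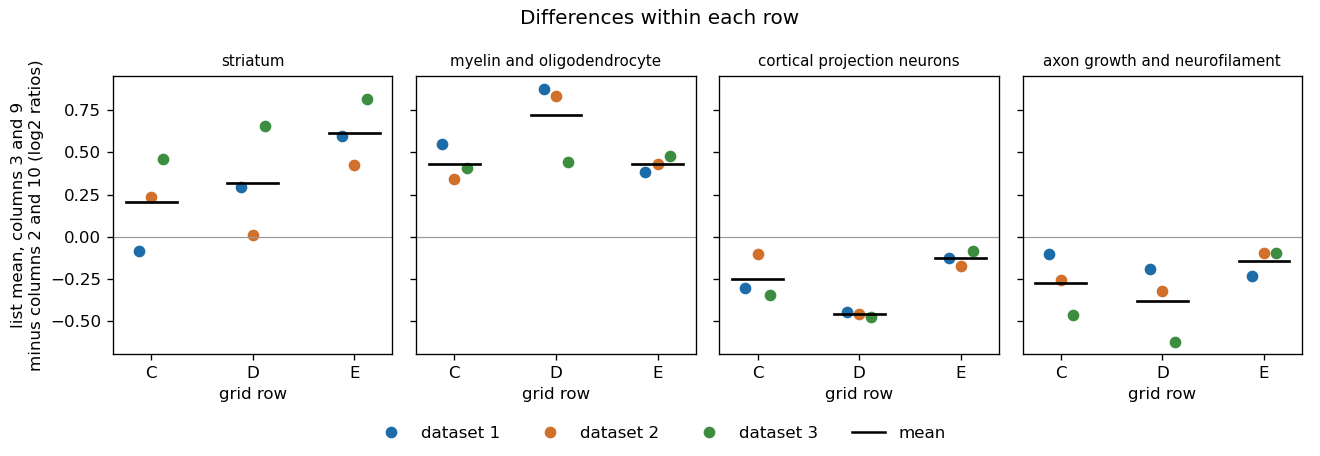
List mean of the difference, columns 3 and 9 minus columns 2 and 10, within rows C, D and E for 4 gene lists, with a coloured point per dataset and a bar at the mean. The striatal list runs from 0.20 in row C to 0.61 in row E, and the cortical list is closest to 0 in row E (-0.13).

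Some differences were found on both sides of the section and others mainly on 1 side. Ppp1r1b was 1.18 ± 0.07 higher in column 3 than in column 2 and 0.81 ± 0.66 higher in column 9 than in column 10 (SD, n = 3 each). Vxn was at -1.73 ± 0.49 and -1.41 ± 0.16 in the same 2 comparisons, Bcas1 at 0.62 ± 0.09 and 1.07 ± 0.16, and Actn2 at 0.75 ± 0.13 and 0.07 ± 0.34 (SD, n = 3 each). Spock3 was at 0.06 ± 0.48 and 0.63 ± 0.31, and Rasgrp2 at -0.19 ± 0.41 and 0.44 ± 0.40 (SD, n = 3 each). In dataset 1 column 3 lacked E3, so C3 and D3 were set against C2, D2 and E2. Ppp1r1b was at 0.36 at E2 in that dataset, against 2.43 at C2 and 1.82 at D2. The step from column 2 to column 3, its SD and its test are therefore not matched by row in dataset 1. Tested against each other with limma, the 2 steps differed in 0 of 15615 genes (0%) after adjustment, with 430 (2.75%) at an unadjusted p under 0.05. For Bcas1 the steps differed by -0.45 ± 0.09 (SD, n = 3), column 3 minus 2 less column 9 minus 10, with an unadjusted p of 0.096 and an adjusted p of 1.00. Rhcg, an ammonium transporter, had the smallest p, with a difference of steps of 1.65 ± 0.46, followed by Slc25a53, a mitochondrial carrier, at 1.21 ± 0.35 and the homeobox factor Otx1 at 1.66 ± 0.91 (SD, n = 3 each).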

How the data were processed

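The authors deposited 1 table of log2 ratios, with 20847 rows and 192 arrays, made from 2-colour arrays of voxel RNA against whole brain RNA, per the labels. Trizol extraction was followed by reverse transcription and dye coupling, per the labels' protocols. For the scanner, background correction and normalization, nothing is stated in the sources. Row medians of the deposited log2 ratios were within 0.001 of 0 for 99.9% of rows, so each row had been centred. The lowest value, -6.64, occurred 19322 times and was treated as missing.

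From these values each array was centred on its median (largest shift 0.353). Of the rows, 19683 had values on 80% or more of each dataset's arrays and entered, without the 20 control rows, and those with the same symbol were averaged. The resulting 15643 features are called genes, and 8311 of them had a symbol. Names came from the platform annotation, updated through the RefSeq mouse gene table (GRCm38.p6): 12982 rows were named, 317 had several genes, 229 had 1 symbol without a match and 7299 were not listed. A gene needed values on 3 arrays of a side in each dataset. The mean of columns 3 and 9 minus that of columns 2 and 10 was taken in each dataset and tested with limma 3.58.1 (R 4.3.3, lmFit and eBayes, two-sided, Benjamini-Hochberg over all genes tested). The script was tested on simulated data. Figures were drawn with matplotlib 3.10.9.

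The dataset numbers name independent harvests and pair the 2 sides. Deviations of the 2 sides from their means over the datasets correlated at 0.496, 0.704 and 0.793 in datasets 1 to 3, so the main design keeps the dataset as the block. The named genes are the 15 higher and 15 lower genes with a symbol and the smallest p among those with 1 sign in 3 of 3 datasets and a mean of at least 0.5, all measured striatal genes, and up to 3 genes of each other list. For the 2 tests of a difference they are the 3 with the smallest p. Not every gene of that rule is printed. Members and lists were chosen with earlier results of these data known. The lists of hypothalamus, choroid plexus and ependyma, meninges and vessel, microglia, blood, inhibitory neuron and chaperone genes had 6, 5, 11, 4, 2, 3 and 11 measured genes and medians of 0.01, 0.16, 0.04, 0.09, 0.20, 0.03 and -0.03, and the claustrum list had 1, at -0.27. Alternatives covered the block, the unit of replication, positions, floor values, normalization, filters, rows, sides and datasets.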

Additional observations from a re-analysis of the deposited data

Results flagged for a closer look

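Among 20 shown genes, 120 groups of arrays (1 side of 1 dataset) were examined for a single array far from the others, and 7 had one; chance gives about 1 in 20. The array at E9 of dataset 1 stood apart for 2 genes, with Vxn at 1.12, where the next of 5 arrays of columns 3 and 9 was -0.81, and Tgfa at 0.71, where the next was 1.85. It was the only row E array among them, since E3 was not analysed in dataset 1. Over the datasets the row E arrays of columns 3 and 9 ran from 0.77 to 1.61 for Vxn and from 0.71 to 1.93 for Tgfa. The Vxn value was thus usual for row E, and the Tgfa value was the lowest there. Cdc25b was at -3.86 at C10 of dataset 3, and the next of 6 arrays of columns 2 and 10 was 0.46. Fam219b was at -4.07 at E3 of dataset 2, with the next of 5 arrays of columns 3 and 9 at -0.60, and at 2.36 at E10 of dataset 3, with the next of 6 arrays of columns 2 and 10 at 0.88. Pip5k1c was at -1.59 at D9 of dataset 1, and the next of 5 arrays of columns 3 and 9 was -0.26. Gng3 was at 0.57 at E10 of dataset 2, and the next of 5 arrays of columns 2 and 10 was -0.06.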

How the results depend on the processing

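Of 22 alternatives to the main fit, 16 also gave 0 genes at an adjusted p under 0.05. The others gave 63 genes with each array as its own value, 71 over rows measured on every array, and 1 gene each with medians over positions (a row with no symbol), with no array centring, with quantile normalization and without row E (Vxn in the last 3). Without the replicate block, the 3 dataset means of each side taken as 2 groups, none passed (0 genes), and at an unadjusted p under 0.05 there were 162. Leaving out each dataset gave 0 to 0 genes for the columns, 0 to 0 for row C against row E, and 0 to 6 for the step of columns 2 and 3 against that of columns 9 and 10, with 6 without dataset 1. The size description held 193 genes and was less steady, with 326 with floor values kept, 44 of 7056 over rows measured on every array, 224 without dataset 1, 535 without dataset 2, 543 without dataset 3, 432 in columns 2 and 3 only, 387 in columns 9 and 10 only, 459 without row C and 316 without row D. Of the 65 genes followed, 59 kept their sign in every alternative. This included the alternative without the E9 array of dataset 1, chosen after seeing the data. The higher and lower genes named by rule were chosen for having the same sign in every dataset. Leaving out a dataset could therefore not turn their sign. The fits without the replicate block and with robust eBayes used the same differences as the main fit, so they could turn no sign. In these cases a kept sign does not show steadiness. The sign turned for Rasgrp2 with medians (-0.0021) and in columns 2 and 3 only (-0.19), for Bcl11b with floor values kept (-0.41), in columns 9 and 10 only (-0.056) and without row C (-0.041), and for Mbp without dataset 1 (-0.030, against 0.26 without dataset 3) and without row D (-0.083). It turned for Arpp21 without dataset 3 (-0.075, against 0.16 without dataset 1) and in columns 2 and 3 only (-0.053), and for Foxp1 in columns 2 and 3 only (-0.013). Dclk3, near 0 in the main fit, turned with the arrays in doubt kept (-0.013), with quantile normalization (-0.0041), without dataset 2 (-0.012), without dataset 3 (-0.095, against 0.15 without dataset 1), without row E (-0.089) and without the E9 array (-0.077). The difference ran from 0.62 to 1.07 for Bcas1, from 0.54 to 1.35 for Ppp1r1b, from -2.14 to -1.12 for Vxn and from -1.10 to -0.67 for Basp1 over all settings. Apart from the construction of each setting, the cause was not tested.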
